A study of Mus musculus with 8 samples.

Results

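Toll-like receptors are germline-encoded sensors of microbial molecules. The 10 genes described here are Tlr1 to Tlr9 and Tlr13, chosen by name and found on the arrays through their RefSeq accessions, and the data are lung RNA of 8 female BALB/c mice. All 10 were among the 28992 genes or unnamed transcripts tested. They were represented by 16 of 56605 probes, and each of the 10 had at least 1 probe among the 37116 that were kept because both arrays of at least 1 group were well above background. All mice were bought at 4 weeks of age, housed for 2 weeks and then fed freely for 70 days, with 2 mice in each of 4 groups. NT mice ate standard feed and received no ovalbumin (OVA). Ctrl-F mice ate the same standard feed, Cap-F mice ate feed with carbonate apatite particles that carried no oligodeoxynucleotide, and ODNcap-F mice ate feed with particles that carried a CpG-oligodeoxynucleotide (CpG-ODN), a synthetic ligand of TLR9. Those 3 groups were immunized with OVA and alum by intraperitoneal injection on Days 42, 49 and 56, inhaled an OVA aerosol from Days 63 to 69, and gave lung samples 24 h later, on Day 70. NT therefore lacks alum and the aerosol as well as OVA, and its difference from the other groups holds all of these together. No TLR gene was altered in any mouse, so there is no targeted gene to check. RNA came from whole lung, which was rich in its own markers: the 6 lung epithelial genes on the list, among them the surfactant genes Sftpc and Sftpb, averaged 15.40 to 15.76 on the log2 scale on all 8 arrays.

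TLRs sit in the membrane as dimers or form them on binding a ligand, and pass the signal through a cytoplasmic domain to the adaptors MyD88 and TRIF, and from there to NF-kB and interferon regulatory factors. TLR1, TLR2, TLR4, TLR5 and TLR6 face the outside of the cell and bind bacterial lipoproteins, lipopolysaccharide or flagellin. TLR3, TLR7, TLR8, TLR9 and TLR13 face the inside of endosomes, where they bind nucleic acids, and need the chaperone UNC93B1 to get there. In the lung they are carried by macrophages, dendritic cells and lymphocytes, and some of them also by airway epithelium and endothelium.

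Sequences just upstream of the start sites are shown for the members called against NT that had one listed, other than the dim Tlr8, because members that moved the same way can be compared in their letters, and for Tlr9, the receptor of the fed ligand. RefSeq promoter sequences on build GRCm38.p6 were found for 8 of the 10 members, Tlr1 and Tlr6 with 2 listed starts each, of which 1 is printed. Tlr4 and Tlr7 were not among them. Each run below is the 250 bases before a start, 5′ to 3′ on the gene's strand, and capitals mark the letters of any of 6 motifs, searched on both strands: GAGGAAGT (Ets/PU.1 type), TGANTCA (AP-1 type, which reads the same on both strands), GAAA, any 2 bases, GAAA (interferon-stimulated response element, ISRE, type), TATAAA, TTGCNNAA (C/EBP type) and GGGA, any base, TTTCC (NF-kB type).
Tlr1, chr5:64933559-64933808, minus strand: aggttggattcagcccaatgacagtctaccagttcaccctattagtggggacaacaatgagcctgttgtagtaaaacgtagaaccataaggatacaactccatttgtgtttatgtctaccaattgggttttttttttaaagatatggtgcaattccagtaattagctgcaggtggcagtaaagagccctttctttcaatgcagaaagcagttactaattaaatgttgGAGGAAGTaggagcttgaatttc
Tlr6, chr5:64959167-64959416, minus strand: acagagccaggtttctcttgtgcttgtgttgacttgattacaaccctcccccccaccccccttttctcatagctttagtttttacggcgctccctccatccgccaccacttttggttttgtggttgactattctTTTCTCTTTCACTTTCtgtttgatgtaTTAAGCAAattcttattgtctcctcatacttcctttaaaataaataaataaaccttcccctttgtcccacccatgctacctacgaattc
Tlr13, chrX:106143025-106143274, plus strand: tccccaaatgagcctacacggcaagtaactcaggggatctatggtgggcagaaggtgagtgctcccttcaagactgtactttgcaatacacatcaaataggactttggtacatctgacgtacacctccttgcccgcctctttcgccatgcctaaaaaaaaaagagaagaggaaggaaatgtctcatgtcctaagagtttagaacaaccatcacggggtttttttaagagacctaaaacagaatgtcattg
Tlr5, chr1:182954538-182954787, plus strand: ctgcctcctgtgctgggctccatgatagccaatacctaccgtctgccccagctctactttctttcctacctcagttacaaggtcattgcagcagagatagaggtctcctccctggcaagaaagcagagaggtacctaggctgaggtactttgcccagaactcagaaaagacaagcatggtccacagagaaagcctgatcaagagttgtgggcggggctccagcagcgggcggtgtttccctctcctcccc
Tlr3, chr8:45410381-45410630, minus strand: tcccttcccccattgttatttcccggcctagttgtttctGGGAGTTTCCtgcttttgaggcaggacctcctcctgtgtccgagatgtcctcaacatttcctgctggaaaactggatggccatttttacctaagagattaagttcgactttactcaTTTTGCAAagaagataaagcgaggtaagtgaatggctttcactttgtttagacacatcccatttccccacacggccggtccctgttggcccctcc
Tlr9, chr9:106222348-106222597, plus strand: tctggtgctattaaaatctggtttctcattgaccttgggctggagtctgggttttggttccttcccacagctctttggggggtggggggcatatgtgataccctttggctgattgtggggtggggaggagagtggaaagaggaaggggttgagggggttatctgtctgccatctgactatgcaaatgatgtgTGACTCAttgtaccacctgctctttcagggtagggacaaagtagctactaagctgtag

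None of the 6 motifs was in most of the windows. Of 32851 promoters of the same length, 2.44% held GAGGAAGT, 6.75% TGANTCA, 2.98% the ISRE letters, 12.4% TATAAA, 9.56% TTGCNNAA and 0.356% the NF-kB letters. Among the 10 windows of the members, GAGGAAGT was in 1, for Tlr1, and the ISRE letters were in 1, where 2 overlapping matches stood before a Tlr6 start. The NF-kB letters were in 1, for Tlr3, whose window also held TTGCNNAA. TGANTCA was in 1, for Tlr9, starting 58 bases before the start. TATAAA was in the window of Tlr8, where matches on both strands overlap, and at the other listed start of Tlr6. TTGCNNAA was thus in the windows of Tlr3 and Tlr8 and in the printed one of Tlr6, more windows than any other of the 6 motifs, beside 9.56% of all promoters. The windows of Tlr2, Tlr5 and Tlr13 and the other start of Tlr1 held none of the 6. The dinucleotide CG occurred 0 times in the window of Tlr9 and 11 times in that of Tlr2, against a median of 6 over all promoters. Such matches describe the letters only.

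All values below are log2 signals after quantile normalization over the 8 arrays, and a change is a difference of group means on that scale. A gene was called when the Benjamini-Hochberg adjusted p over all kept probes was under 0.05 in a limma fit of all 8 arrays, which pools the spread of the 4 groups. The brightest probe stands for a gene. Levels are not comparable between genes, because probes differ in brightness, so the order of levels is given between groups only. All arrays were on 1 slide and 1 scan, NT and Ctrl-F in its first row and Cap-F and ODNcap-F in its second. Row and group cannot be told apart in comparisons across the rows, while Ctrl-F against NT and ODNcap-F against Cap-F lie within a row. Nothing in the labels names separate cages or extractions, and p-values measure the spread between mice as arrayed. On each array 61.3% to 65.0% of probes exceeded background clearly, no spot was saturated, and 2 mice per group limit the precision. An exact permutation of the values of 1 gene in 2 mice against 2 gives no two-sided p below 0.333, so the fit across all probes was used.

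The question of the widest comparison was which TLR transcripts differ in the OVA-challenged lung. Against NT, the mean of the 3 OVA groups was higher for Tlr1, Tlr4, Tlr6, Tlr7, Tlr8 and Tlr13, lower for Tlr3 and Tlr5, and not called for Tlr2 and Tlr9. These 6 higher and 2 lower of 10 stand beside 27.7% of 28992 genes called higher and 38.7% called lower. Tlr8 was kept through Ctrl-F only, and over the 9 members well above background on all arrays the counts were 5 higher, 2 lower and 2 not called. The median change of the 10 members was 0.64, beside a median of -0.12 over all genes tested. That small downward shift depends on the filter: over all probes, with no filter on dim ones, the median was -0.00056. For each of the 8 called members, all 6 OVA mice lay on the same side of both NT mice, which also held, upward, for 28.9% of all genes and, downward, for 40.6%. The separation comes from the same values that made the calls, so it adds no support to them. It includes Tlr8, whose NT and Cap-F signals were not well above background.

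**Figure D1:**
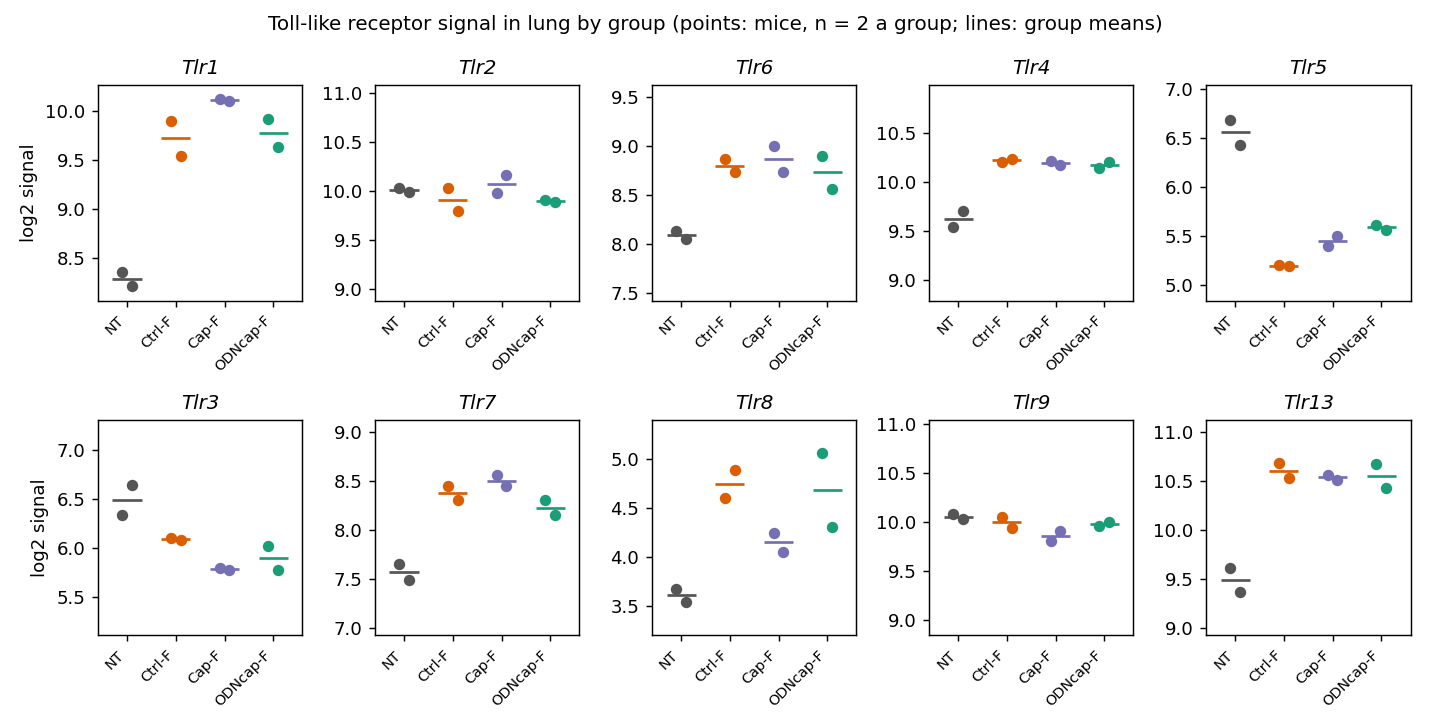
Log2 signal (vertical axes, each with its own range) of the 10 Toll-like receptor genes, with NT, Ctrl-F, Cap-F, then ODNcap-F from left to right, 1 point per mouse and a line at the mean of the 2 mice of a group. Tlr1, Tlr6, Tlr4, Tlr7, Tlr8 and Tlr13 sit higher in all 6 OVA mice than in NT, Tlr5 and Tlr3 sit lower, and Tlr2 and Tlr9 stay near their NT level; Tlr8 was well above background in 3 of the 8 mice.

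The lipoprotein receptors came first. TLR2 binds bacterial lipoproteins as a dimer with TLR1 or TLR6, TLR1 favouring triacylated and TLR6 diacylated ligands. Tlr1 (NM_001276445) was at 8.36 and 8.20 for the 2 NT mice, 9.89 and 9.54 for Ctrl-F, 10.12 and 10.10 for Cap-F, and 9.92 and 9.63 for ODNcap-F. The lowest OVA mouse was thus 1 log2 unit or more above both NT mice. The rise of Tlr1 by 1.59 (SE 0.124, adjusted p = 0.000126), or 3.003-fold, was the largest among the 10 members. A second probe of Tlr1, for NM_030682, gave the same change of 1.59.

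Tlr6 (NM_011604), the other partner of TLR2, was at 8.13 and 8.05 for NT, 8.87 and 8.73 for Ctrl-F, 8.996 and 8.733 for Cap-F, and 8.89 and 8.56 for ODNcap-F. It rose by 0.71 (SE 0.117, adjusted p = 0.00258), and the 3 OVA groups overlapped with one another. Tlr2 (NM_011905) itself was at 10.04 and 9.99 for NT, 10.03 and 9.80 for Ctrl-F, 9.98 and 10.17 for Cap-F, and 9.91 and 9.90 for ODNcap-F. Both ODNcap-F mice lay below both NT mice and both Cap-F mice for Tlr2, while Ctrl-F and Cap-F overlapped with NT. Its change of -0.05 in the OVA groups (95% confidence interval -0.26 to 0.16, adjusted p = 0.640) was not called. The transcripts of both partners were therefore higher while that of the shared subunit was not called, in the same mice.

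TLR4 recognizes lipopolysaccharide and TLR5 flagellin. Tlr4 (NM_021297) was at 9.55 and 9.71 for NT, 10.21 and 10.24 for Ctrl-F, 10.22 and 10.18 for Cap-F, and 10.14 and 10.20 for ODNcap-F. It rose by 0.57 (SE 0.0645, adjusted p = 0.000517), and the 6 OVA mice lay within 0.10 of one another. A second, dim probe of Tlr4 changed by 0.63 with a larger SE of 0.267 and was not called (adjusted p = 0.0790).

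Tlr5 (NM_016928) showed the opposite, with 6.68 and 6.43 for NT, 5.20 and 5.19 for Ctrl-F, 5.39 and 5.50 for Cap-F, and 5.61 and 5.56 for ODNcap-F. It fell by 1.15 on the log2 scale (SE 0.0824, adjusted p = 9.45e-05), a 2.21-fold lower signal and the smallest adjusted p of the 10. The size of this fall depended on the background correction, being -0.58 after normexp, with the call kept. Among the OVA groups the order was Ctrl-F, Cap-F, ODNcap-F from low to high, but no pair of these groups was called apart, the ends of the order included.

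Among the receptors of nucleic acids, TLR7 and TLR8 bind single-stranded RNA and TLR13 a stretch of bacterial ribosomal RNA. Tlr7 (NM_001290755) was at 7.65 and 7.49 for NT, 8.45 and 8.30 for Ctrl-F, 8.56 and 8.45 for Cap-F, and 8.30 and 8.15 for ODNcap-F. Its rise was 0.80 (SE 0.0828, adjusted p = 0.000369), and a second probe gave 0.85. Another Tlr7 probe was not well above background on any array and was not tested.

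Tlr13 (NM_205820) was at 9.61 and 9.37 for NT, 10.68 and 10.53 for Ctrl-F, 10.56 and 10.51 for Cap-F, and 10.67 and 10.43 for ODNcap-F. It rose by 1.07 (SE 0.0997, adjusted p = 0.000239), the second largest rise among the members, and its dimmer second probe by 1.44. Tlr8 (NM_133212) was dim, at 3.68 and 3.55 for NT, 4.60 and 4.89 for Ctrl-F, 4.24 and 4.05 for Cap-F, and 5.06 and 4.31 for ODNcap-F. It was not well above background in NT and Cap-F, was in both Ctrl-F mice and was in 1 of the 2 ODNcap-F mice. With the background correction of the main fit, its observed mean signal was at least 2.14-fold higher in Ctrl-F than in NT (adjusted p = 0.00914). For ODNcap-F against NT the same calculation gave 2.05-fold (adjusted p = 0.0119), with 1 of the 2 ODNcap-F mice not well above background. The bounds set the mean of the brighter group against, on each NT array, the higher of the lowest signal well above background and the signal of the probe itself. Tlr8 was tested only because Ctrl-F was well above background, so its p against NT is no independent support. The ODNcap-F bound rests on mouse 1, without which the change was 0.70 on the log2 scale. The call in ODNcap-F was lost without NT mouse 2 and by the local-pooled-error test, that in Ctrl-F without Ctrl-F mouse 2, and that of the OVA groups together without NT mouse 2. After normexp the changes of Tlr8 were 0.25 in Ctrl-F and 0.28 in ODNcap-F on the log2 scale, with the calls kept. These are smaller than the bounds, which therefore do not hold under another background correction.

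TLR3 binds double-stranded RNA and is the member that signals through TRIF without MyD88. Tlr3 (NM_126166) was at 6.34 and 6.64 for NT, 6.11 and 6.08 for Ctrl-F, 5.80 and 5.78 for Cap-F, and 6.02 and 5.78 for ODNcap-F. It fell by 0.57 on the log2 scale (SE 0.103, adjusted p = 0.00383) and by 0.72 at its second probe. The fall was smaller after normexp, at -0.24.

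TLR9 is the receptor of unmethylated CpG DNA and so of the fed ligand. Tlr9 (NM_031178) was at 10.08 and 10.03 for NT, 10.06 and 9.94 for Ctrl-F, 9.81 and 9.91 for Cap-F, and 9.959 and 9.998 for ODNcap-F. All 8 mice lay within 0.27 of one another. The change of -0.11 between the OVA groups and NT was not called, with a 95% confidence interval from -0.26 to 0.04 and an adjusted p of 0.169. By group, the changes against NT were -0.06 for Ctrl-F, -0.19 for Cap-F and -0.08 for ODNcap-F, none called by the main fit. The Cap-F interval ran from -0.38 to -0.005 (limma unadjusted p = 0.0453, adjusted p = 0.0750). After normexp the Cap-F change was called.

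Each OVA group was also set against NT on its own, and these 3 comparisons share the NT mice. Ctrl-F against NT gave 6 members higher and 2 lower, the same 8 genes as above, beside 26.2% of genes called higher and 35.7% lower. Cap-F against NT gave 5 higher and 2 lower, beside 24.1% and 32.4%, with Tlr8 not called (adjusted p = 0.114). Tlr8 was called in a fit of Cap-F and NT only (adjusted p = 0.0200) and without either ODNcap-F mouse. Its signal was not well above background in Cap-F or NT, so those calls are no support for a rise. ODNcap-F against NT gave 6 higher and 2 lower, beside 25.1% and 34.9%. Over the 9 members well above background on all arrays, each of the 3 comparisons gave 5 higher and 2 lower. With a fold over 2 also required, the members called were 4 for Ctrl-F beside 22.8% of all genes, 3 for Cap-F beside 19.6%, 3 for ODNcap-F beside 20.7% and 3 for the OVA groups together beside 21.2%. The changes of Tlr1 were 1.43 for Ctrl-F, 1.83 for Cap-F and 1.49 for ODNcap-F. Those of Tlr13 were 1.11, 1.05 and 1.06 in the same order, and those of Tlr4 were 0.60, 0.57 and 0.55. Tlr5 had -1.36, -1.11 and -0.97. Tlr3 had -0.40, -0.71 and -0.60, where the call in Ctrl-F (adjusted p = 0.0348) was lost in 10 of 18 other settings, among them without NT mouse 2, when the change was -0.25, and without either Ctrl-F mouse. The second probe of Tlr3 had -0.85 (adjusted p = 0.00783), -0.66 (0.0225) and -0.67 (0.0195) in the same order, so the probes differ most in Ctrl-F. Without NT mouse 2, ODNcap-F against NT kept 6 of its 8 calls and lost Tlr6 and Tlr8.

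**Figure D2:**
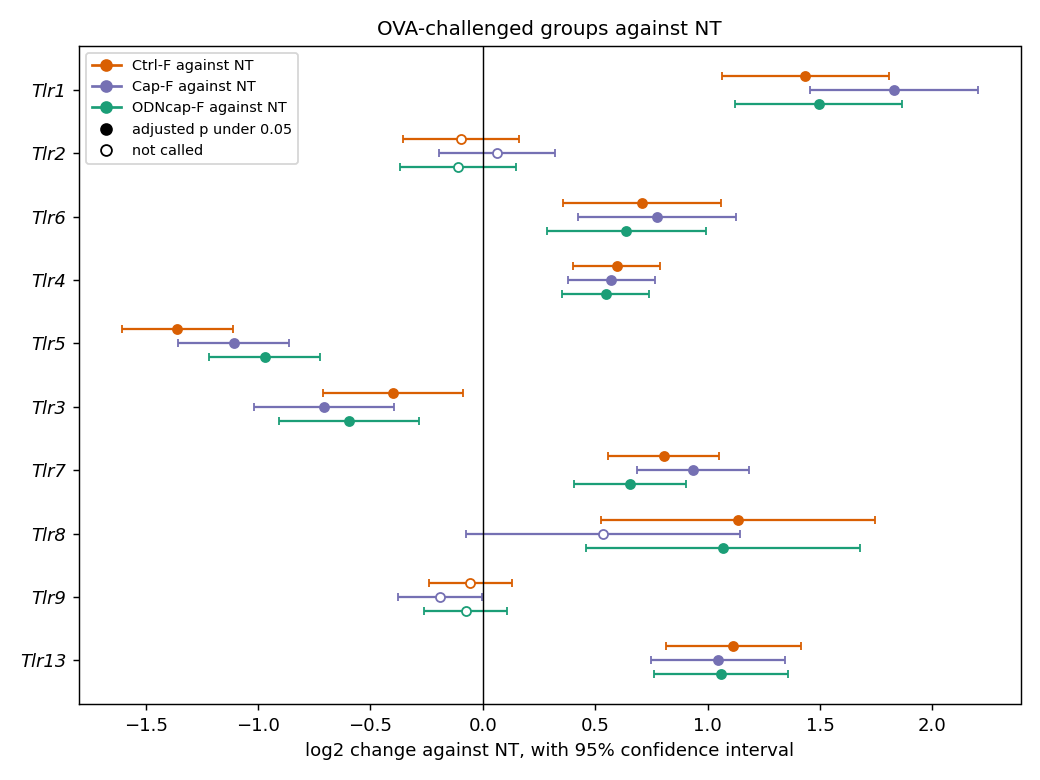
Log2 change (horizontal axis) of the 10 Toll-like receptor genes for each OVA group against NT, each from the limma fit with its 95% confidence interval, 2 mice per group. Filled points passed an adjusted p of 0.05; Tlr1 has the largest rise in each group, from 1.43 to 1.83, Tlr5 the largest fall, from -0.97 to -1.36, and the intervals of Tlr2 cross 0 throughout. Points of Tlr8 are fitted values against NT mice not well above background.

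The comparisons among the OVA-challenged groups asked whether the particle feed or its CpG-ODN moved these transcripts. No member was called by limma in ODNcap-F against Ctrl-F, beside 0% of genes called higher and 0% lower. None was called in ODNcap-F against Cap-F, beside 0% higher and 0.00345% lower, or in Cap-F against Ctrl-F, beside 0.00345% higher and 0% lower. ODNcap-F against the mean of Ctrl-F and Cap-F gave none either, beside 0.0069% higher and 0.00345% lower. The local-pooled-error test, where probes of like intensity lend a probe its variance, called 0 of the 10 members in each of the first 3 comparisons, beside 0.831%, 0.849% and 1.48% of all genes. At an unadjusted p under 0.05, limma counted 1 member for ODNcap-F and Ctrl-F, 1 for ODNcap-F and Cap-F, 2 for Cap-F and Ctrl-F and 1 for ODNcap-F against both, beside 6.78%, 13.4%, 16.6% and 7.63% of all genes. These counts of 10 members are near those shares.

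The member with the smallest p for the CpG-ODN feed was Tlr5. Its signal was 0.39 higher with ODNcap-F than with Ctrl-F (95% confidence interval 0.14 to 0.64, unadjusted p = 0.00843, adjusted p = 0.685), and the ODNcap-F mice lay above the Ctrl-F mice without overlap. Against Cap-F the difference of Tlr5 was 0.14 (-0.11 to 0.39). Cap-F itself was 0.25 above Ctrl-F for Tlr5 (unadjusted p = 0.0474) and 0.39 above it for Tlr1 (unadjusted p = 0.0410). The second Tlr1 probe gave 0.35 (unadjusted p = 0.0511). Tlr7 was lower with ODNcap-F than with Cap-F, at a change of -0.28 (-0.53 to -0.03, unadjusted p = 0.0342, adjusted p = 0.356). Its second probe gave -0.17 (unadjusted p = 0.138). None of these passed the adjustment.

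For Tlr9 the difference between ODNcap-F and Ctrl-F was -0.02, with a 95% confidence interval from -0.21 to 0.16, and that between ODNcap-F and Cap-F was 0.11 (-0.07 to 0.30). Changes of Tlr9 beyond these limits are outside the intervals, and smaller ones could not be resolved with 2 mice per group. The interval was widest for Tlr8, from -0.67 to 0.55 in ODNcap-F against Ctrl-F, and its ODNcap-F mice were 0.75 apart.

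**Figure D3:**
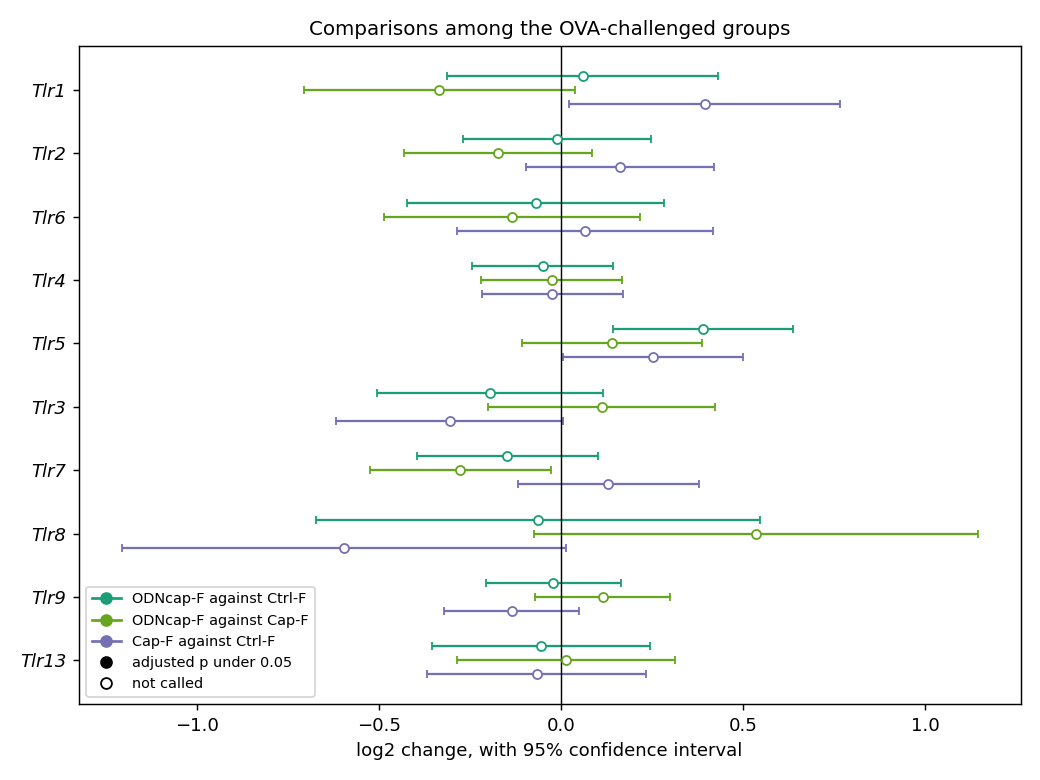
Log2 change (horizontal axis) of the 10 Toll-like receptor genes between each pair of OVA groups (ODNcap-F minus each of the other two, and Cap-F minus Ctrl-F), with 95% confidence intervals from the limma fit, 2 mice per group. All points are open because none passed an adjusted p of 0.05; the Tlr5 interval for ODNcap-F against Ctrl-F runs from 0.14 to 0.64 and that of Tlr9 from -0.21 to 0.16.

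The other genes of the pathway were taken from lists by role. Their counts in the OVA groups against NT stand beside 27.7% of all genes called higher and 38.7% called lower. Counts near those shares are not read as results about a list. Of the remaining mouse receptors, Tlr11 and Tlr12, which bind profilin, both rose in the OVA groups against NT, Tlr11 by 0.57 and Tlr12 by 1.58. Of 4 adaptors tested, Myd88 rose by 0.28 and Ticam1, which encodes TRIF, by 0.85, while Tirap and Sarm1 were not called. The co-receptors split: Cd14, which hands lipopolysaccharide to TLR4, rose by 1.46, and Ly86, the MD-1 partner of the TLR4 relative CD180, rose by 2.41. Ly96, which encodes MD-2, the subunit of TLR4 that holds lipopolysaccharide, fell by 0.88 on the log2 scale, and Cd180 fell by 0.42. Cd36 and Lbp were not called. Without NT mouse 1 the changes of Tlr11 and Cd180 were 0.37 and -0.23 and neither was called, Cd180 also lost its call when any of 5 other mice was left out, and Tlr11 changed by 0.24 after normexp.

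The levels of Ly96 were 14.01 and 14.08 for NT and between 13.06 and 13.35 in the 6 OVA mice, without overlap. Those of Ly86 were 10.74 and 10.57 for NT and between 12.89 and 13.21 in the OVA mice. Transcripts of the TLR4 complex thus moved in different directions, with Tlr4 and Cd14 higher and Ly96 lower.

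Trafficking and cleavage of the endosomal receptors was the role list with the highest share of calls in one direction among the pathway lists of more than 2 genes. Of 10 genes, 8 were called higher and 0 lower, and the median change was 1.27. Unc93b1, the chaperone of the endosomal TLRs, was at 11.52 and 11.47 for NT and between 12.62 and 13.02 in the OVA mice, a rise of 1.34 (SE 0.0988, adjusted p = 0.000103). The lysosomal proteases that can cut these receptors rose too, Ctss by 2.02, Lgmn by 1.68, Ctsb by 1.34, Ctsl by 1.20 and Ctsk by 3.81. Hsp90b1, which encodes the chaperone GP96, rose by 1.21 and Ap3b1 by 0.22, while Cnpy3 and Slc15a4 were not called. Ap3b1 lost its call when any of 5 mice was left out, with 0.13 without NT mouse 1. The proteases have many other substrates in macrophages, and the list holds them for this role only.

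Of 13 kinases and ubiquitin ligases, 5 were higher, Irak2, Irak4, Map3k7, Traf3 and Ikbke, and 1, Ikbkb, was lower, with changes of the 13 between -0.46 and 0.55. Of 6 transcription factors, Irf5, which acts below TLR7 and TLR9 in macrophages, rose by 1.90 and Nfkb1 by 0.39, while Jun fell by 0.85, Rela by 0.57 and Irf3 by 0.28 on the log2 scale. Scaled to the 75th percentile, Rela changed by -0.36 and Irf3 by -0.16, the latter not called. Of 9 negative regulators, Il1rl1, Tnfaip3, Tnip1 and Irak3 were higher and Sigirr, Tollip and Rnf216 lower. The calls of Irak4, Ikbke and Irak3 were lost without either NT mouse and that of Nfkb1 without NT mouse 1, and after normexp Irak4 changed by 0.24 and Ikbke by 0.26. Il1rl1 is also the receptor of interleukin-33 and Tnfaip3 an enzyme that edits ubiquitin chains.

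Of 12 cytokines and costimulatory genes that TLR signals can switch on, 9 were higher and 1 lower, with a median of 1.08. Il6 rose by 3.62, Cxcl10 by 2.85, Ccl3 by 2.74, Ccl4 by 2.65, Cd86 by 1.66, Tnf by 1.32, Cd40 by 0.84, Il1b by 0.44 and Cd80 by 0.29. Ccl5 was the one that fell, by 0.50 on the log2 scale, and Il12a and Il12b were not called. Il6 was well above background in 1 of the 2 NT mice and changed by 1.43 after normexp. Tnf was at 5.28 and 6.62 in NT, and leaving out NT mouse 2 gave a rise of 1.99, leaving out NT mouse 1 gave 0.65 and normexp gave 0.76. Ccl5 lost its call without NT mouse 1. Many other receptors switch on the same genes. No gene of these pathway lists was called in any comparison among the OVA groups, where at most 0.0069% of all genes were called in a direction. Ticam2 and Ifnb1 were not kept.

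Markers of blood cells moved in the same comparison, and whole-lung RNA holds all cells together, so that fewer cells of a type and less RNA per cell cannot be told apart. The marker counts too stand beside 27.7% of all genes called higher and 38.7% called lower. All 4 pan-leukocyte genes rose, by 1.05 to 1.76, and their mean log2 level was 11.34 to 11.59 in NT and 12.68 to 13.06 in the OVA mice. All 5 eosinophil markers rose, 4 of them by 0.96 to 3.62. Epx was not well above background in NT. Its observed mean signal was at least 24.3-fold higher by the bound used for Tlr8, which leaves out the spread between mice. That bound holds for the background correction of the main fit only, and after normexp Epx rose by 2.36 on the log2 scale. All 5 B cell markers rose, by 0.69 to 2.22, the lowest being Pax5 with 0.27 after normexp. Of 6 macrophage and monocyte markers, 5 rose and Cx3cr1 fell, with a mean level of 10.17 to 10.18 in NT and 11.36 to 11.61 in the OVA mice. These lists rose beside Tlr1, Tlr4, Tlr6, Tlr7, Tlr8 and Tlr13.

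Tlr9 and Tlr2 were not called in lungs where these leukocyte lists rose. Among cells that carry TLR9, the B cell markers were at a mean of 8.91 to 9.39 in NT and 10.75 to 11.14 in the OVA mice. Of 4 plasmacytoid dendritic cell markers kept, Ccr9 rose and Siglech fell by 0.42 on the log2 scale, while Bst2 and Tcf4 were not called. Of 5 T cell markers, 4 rose and Cd8a was not called. Of 5 neutrophil markers, Cxcr2 and Retnlg rose while S100a8, S100a9 and Csf3r fell, and of 6 alveolar macrophage markers Chil3, Ear2 and Fabp4 rose while Marco and Car4 fell. Calls of Cd3d, Cd3e, Cxcr2, Cx3cr1, Fabp4, S100a8 and S100a9 were each lost when 1 mouse or another was left out. Scaled to the 75th percentile, Siglech (-0.11), S100a8 and S100a9 were not called, and Csf3r changed by -0.31 in place of -0.56.

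All 4 endothelial markers, Pecam1, Cdh5, Tek and Kdr, fell, at a mean of 12.37 to 12.49 in NT and 10.96 to 11.19 in the OVA mice, beside the falls of Tlr3 and Tlr5. Of 6 epithelial markers, Ager and Sftpb fell and 4 were not called, with Sftpb at -0.48, or -0.18 when scaled to the 75th percentile. Among those not called, Sftpc and Scgb1a1 lay between 17.52 and 17.64 on every array. That is the top of the scale, where quantile normalization leaves little room for a difference, so their result says little about a change. No marker on any of these lists had its groups called apart among Ctrl-F, Cap-F and ODNcap-F. At most 0.0069% of all genes were called in a direction there, so the lists do not show whether the feed changed these cells. In lavage fluid the paper counted fewer eosinophils, neutrophils and lymphocytes with ODNcap-F than with Ctrl-F or Cap-F. Ly6g and Trac had no probe here and Runx2 was not kept. The part of any of these cell types in the TLR changes was not tested.

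**Figure D4:**
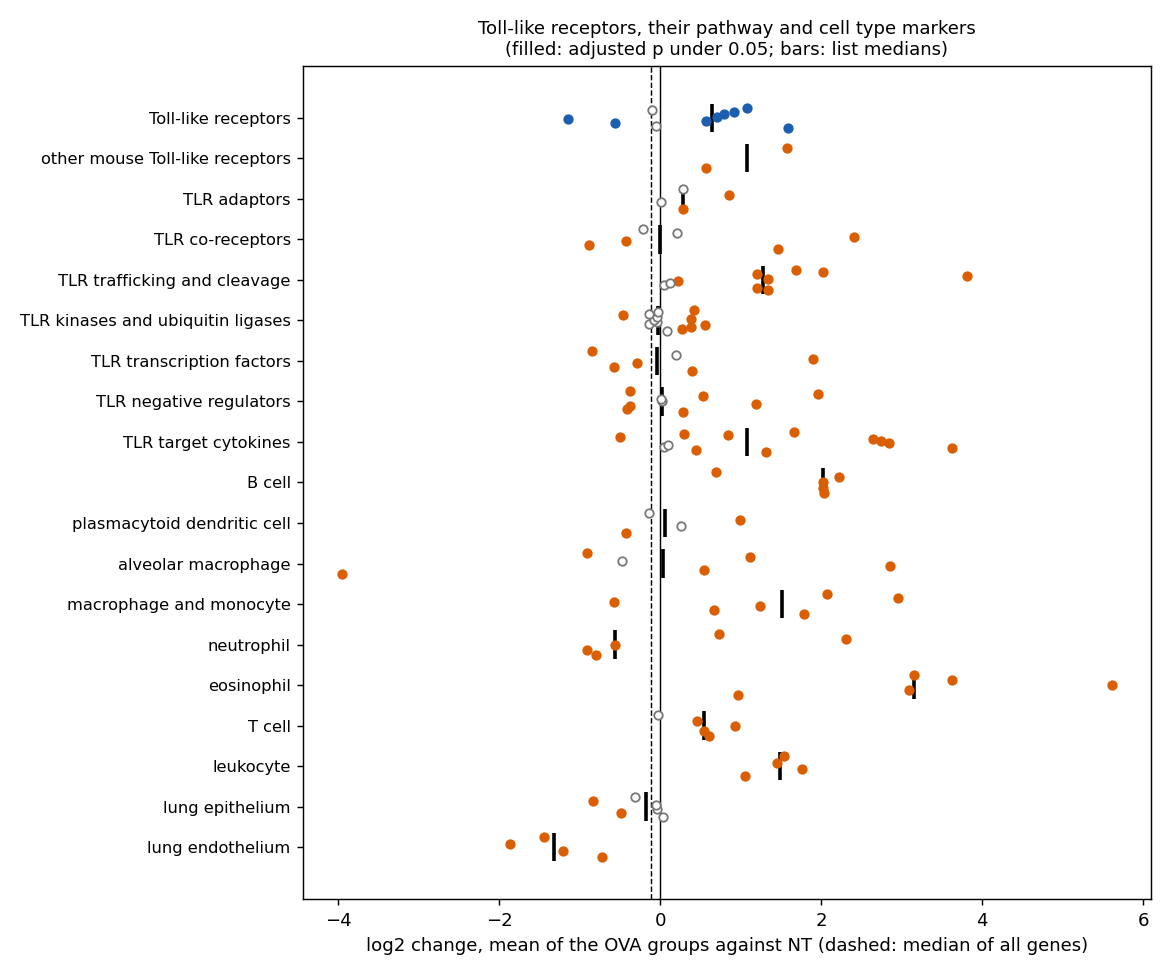
Log2 change (horizontal axis) of the mean of the 3 OVA groups against NT for the 10 Toll-like receptors, the other genes of their pathway by role, and cell type markers, with 1 point per gene, filled when the adjusted p was under 0.05. Black bars are list medians, 0.64 for the Toll-like receptors and 1.27 for trafficking and cleavage, and the dashed line is the median of all genes at -0.12; Tlr8 and the eosinophil gene Epx are drawn at fitted values although NT was not well above background.

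The genes most like each member over the 8 arrays were taken from 15180 named genes well above background on all arrays. For Tlr1 they were H2-Ob, Myo1g and Unc93b1, with Pearson correlations of 0.996 to 0.997. For Tlr7 they were Kif21b, Csk and Hps1, and for Tlr13 Tnfaip8l2, Arpc2 and Cib1, at 0.997 to 0.998. For Tlr5 they were Btbd11, Zfp212 and Gpr149 and for Tlr3 Sde2, Dll4 and Midn, with 0.982 to 0.993. Tlr9 had lower ones, 0.936 to 0.958, with C7, Wdr83os and Gm3448. For members that differed from NT these correlations mostly hold the offset between NT and the OVA mice, which all genes called the same way share, and they are given as descriptions.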

How the data were processed

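Lung RNA of 8 mice was measured on Agilent SurePrint G3 arrays, 1 per mouse. Per the file headers and the study's methods, the authors deposited an intensity per spot, corrected for background and spatial trend (Agilent Feature Extraction 11.0), not normalized between arrays, with raw median signals, and a table of log2 values of 32312 probes, quantile normalized after a filter that is not described. Here, 792 flagged spot values were set to missing, intensities were taken to log2, averaged per probe and quantile normalized, and 37116 probes were kept, those flagged well above background in both mice of 1 group or more. Names came from RefSeq accessions and matched 58.3% of probes. Limma 3.58.1 (R 4.3.3) fitted all 8 arrays with the 4 groups as conditions, with Benjamini-Hochberg adjustment over the kept probes, and 8 comparisons were made. Intervals are 95% confidence intervals from that fit. The authors used the local-pooled-error test, which was rebuilt from its definition as an alternative. Limma and this test were tested on simulated data.

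The alternatives were scaling to the 75th percentile, normexp with an offset of 50 on median signals, the deposited log2 table, other filters, a block for the replicate number, a variance trend with intensity, fits of the compared groups only, each mouse left out, the mean of a gene's probes, an unadjusted p, a fold over 2 and the local-pooled-error test. Members, gene lists and tests were chosen with earlier results of these data known. All 10 members are named, pathway genes are named where called, and the 3 most alike genes are listed for several members.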

Additional observations from a re-analysis of the deposited data

How the results depend on the processing

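Of 536 values of the 31 called member changes under the alternatives, leaving out the unadjusted p and the fold over 2, which act on calls only, 520 kept direction and call and 16 lost the call, with 0 reversed. Most losses concern Tlr3 in Ctrl-F against NT and the dim Tlr8, and the cause was not tested. Tlr8 had no value in the deposited table or among probes well above background on all arrays. It was therefore checked in 14 settings for the OVA groups against NT, where the other called members had 16. After normexp the OVA change against NT was -0.58 for Tlr5, -0.24 for Tlr3 and 0.22 for Tlr8. An added requirement of a fold over 2 left 3 members against NT for the OVA groups together, 4 for Ctrl-F, 3 for Cap-F and 3 for ODNcap-F. An unadjusted p gave 1 member for ODNcap-F and Ctrl-F, 1 for ODNcap-F and Cap-F, 2 for Cap-F and Ctrl-F and 1 for ODNcap-F against both, near the shares over all genes. With 1 mouse left out, the calls numbered against NT 7 to 8 for the OVA groups, 6 to 8 for Ctrl-F, 7 to 8 for Cap-F and 6 to 8 for ODNcap-F, and 0 in the comparisons among the OVA groups, the remaining mouse being assumed to vary like the others.

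With the replicate number as a replicate block, the calls against NT were 8 for the OVA groups, 7 for Ctrl-F, 7 for Cap-F and 8 for ODNcap-F and 0 among the OVA groups. Same-numbered mice deviated together with correlations from -0.0123 to 0.161 over 6 pairs, which does not settle whether they share a batch. The paper took lungs in 2 experiments, and the labels do not say which experiment a mouse came from. No pairing was assumed. Of 49 member changes not called, 21 changed sign under some alternative, so no direction is read from them. Outside the called results, normexp called Tlr9 in Cap-F against NT, at -0.22. Tlr8 in Cap-F against NT was called in a fit of these groups only and without either ODNcap-F mouse, though neither group was well above background. Chosen after seeing the data, the 75th percentile, normexp and each mouse left out were also run for the 86 pathway and marker genes called in the OVA groups against NT, where 819 of 860 values kept direction and call, 41 lost the call in 17 genes and 0 reversed. The count for OVA groups against NT has no value for a fit of only the groups compared, which is the full fit, and the local-pooled-error test was run for pairs of groups only. Signal limits Tlr8, which was near background, and 2 mice per group limit everything else.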
